A study of Homo sapiens with 12 samples.

Results

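This report describes 10 genes of the adherens junction and the desmosome, the adhesive junctions of epithelial cells, in HCT116, a human colorectal carcinoma line, after loss of an RNA polymerase or treatment with actinomycin D. The members are CDH1, CDH3, CTNNA1, CTNNB1, CTNND1, JUP, EPCAM, DSG2, DSC2 and DSP. They were found by matching Ensembl identifiers to these symbols, which gave 10 of the 63241 genes in the count table. All 10 passed the filter on low counts, as did 23593 genes in all.

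Total RNA was sequenced in 12 libraries, 3 for each of 4 groups. Controls were wild-type HCT116 with DMSO for 8 h. The POLR1A-depleted group was an HCT116 line of genotype POLR1A-AID1, whose largest RNA polymerase I subunit carries an auxin-inducible degron, a tag that sends the protein to destruction when a ligand is present. Doxycycline at 1 µg/ml, which switches on the receptor OsTIR1 in this line, preceded the ligand by 24 h, and the ligand was 500 µM IAA (indole-3-acetic acid) for 8 h. The POLR2A-depleted group was a line of genotype POLR2A-AID2, with the degron on the largest RNA polymerase II subunit, and had 1 µM 5-Ph-IAA for 8 h. The fourth group was wild-type HCT116 with actinomycin D, a DNA-binding drug that blocks transcription, at 5 µg/mL for 6 h. These times are those of the titles, whereas the extraction protocol puts the harvest at 6 h. No degron line without ligand is used here, so the line, the inducer, the ligand and the loss of the polymerase cannot be told apart. The 3 dishes of a group were treated on a single day and are called technical replicates, so p-values measure only the spread between dishes.

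Library totals ran from 11289094 to 27393969 estimated counts. The degrons act on protein, so the RNA of the tagged genes does not check the depletion. POLR1A RNA was between 145 and 151 CPM (counts scaled to a common library size by TMM) in the POLR1A-depleted libraries and between 128 and 142 in the POLR2A-depleted ones, against 229.8 to 249 in controls. POLR2A RNA was between 1073 and 1110.0 CPM in the POLR2A-depleted libraries and between 908 and 945 in the POLR1A-depleted ones, against 468 to 561 in controls. Of 11 colon epithelium markers, summed levels were 3246 to 3673 CPM in controls, 1788 to 1927 under POLR1A depletion, 2058 to 2239 under POLR2A depletion and 2820 to 3081 with actinomycin D, and CDX1 and CEACAM6 were at 0 in every library. The keratins KRT8, KRT18 and KRT19, with control means of 1851, 1038 and 528 CPM, made up nearly all of this sum. The next marker was CDX2 at 15.6 CPM, so the sums mostly follow these keratins. The summed 10 mesenchyme markers were 45.0 to 54.3 CPM in controls, 63.3 to 65.4 under POLR1A depletion, 53.0 to 54.8 under POLR2A depletion and 45.9 to 50.2 with actinomycin D, with LUM at 0 in every library. Of the 6 tested, 3 rose and 2 fell under POLR1A depletion, where 20.6% of all genes tested were called higher and 18.6% lower. Named after their values were seen, these markers were VIM (log2 2.31), ACTA2 (1.83) and COL1A1 (1.57) against FN1 (-0.80) and THY1 (-2.42). The summed blood markers reached 3.29 CPM and the endothelial markers 0.839 CPM in the other groups, but 8.78 to 10.2 and 8.06 to 10.3 CPM under POLR2A depletion. There PECAM1, at a mean of 7.92 CPM, made up most of the endothelial sum, while VWF was not called (log2 0.005). Among blood markers CD14 (3.82 CPM) and HBB (3.20 CPM) were highest in that group, and HBB was not called against controls. The part of these marker shifts in the results on junction genes was not tested.

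In an adherens junction, classical cadherins such as E-cadherin bind their like on the next cell, and their tails hold catenins that connect the complex to actin. In a desmosome, the desmogleins and desmocollins do the same work, and plakoglobin and desmoplakin tie them to keratin filaments. Intestinal epithelium carries both junctions, together with EPCAM, a surface protein of simple epithelia. Beta-catenin and plakoglobin are close relatives, and beta-catenin also acts in the nucleus in Wnt signalling.

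Per kilobase of the annotated principal transcript, control levels were highest for EPCAM at 113 ± 7.24 CPM per kb (mean ± SD, n = 3) and CTNNA1 at 89.9 ± 5.87. JUP at 79.0 ± 7.75 and CTNNB1 at 75.9 ± 7.56 CPM per kb did not differ beyond their spread. CTNND1 followed at 53.5 ± 2.38, DSG2 at 46.7 ± 0.954 and DSP at 39.3 ± 2.12 CPM per kb. The lowest were CDH3 at 27.2 ± 2.31, CDH1 at 17.6 ± 1.35 and DSC2 at 5.78 ± 0.0170 CPM per kb. The length used was 12325 bases for DSC2 and 4889 for CDH1. Before division by length, their control means were 71.2 and 85.8 CPM in that order. Which transcript was expressed was not tested. Together the members took 0.235% to 0.248% of all counts in controls, 0.246% to 0.251% under POLR1A depletion, 0.270% to 0.283% under POLR2A depletion and 0.321% to 0.331% with actinomycin D.

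Under POLR1A depletion, the cadherins of the adherens junction and EPCAM were lower, and beta- and alpha-catenin were higher. CDH1, CDH3, EPCAM, JUP, DSC2 and DSP fell, CTNNB1, CTNNA1 and DSG2 rose, and CTNND1 did not pass the test. That is 3 members higher and 6 lower, where 20.6% of all genes tested were called higher and 18.6% lower, and the members' median log2 fold change was -0.25 beside 0.01 for all genes. The 3 comparisons with controls share the control libraries. Calls rest on edgeR's quasi-likelihood test over all genes, with the Benjamini-Hochberg adjusted p below 0.05. Rises and falls throughout are relative to the other RNA of a library. Amounts per cell were not measured, so a gene called higher may have gained only in share. With libraries scaled instead on 13 mitochondrial mRNAs, 4 members were called higher and 2 lower: CDH1 and EPCAM remained lower, and DSC2 and DSP turned to log2 values of 0.07 and 0.13, not called. Under POLR2A depletion, 5 members rose and 4 fell, where 33.2% of genes tested were called higher and 28.2% lower. The median there was 0.12 beside 0.08 for all genes, and the mitochondrial scaling left 1 member higher and 4 lower. With actinomycin D all 10 members rose, where 24.9% of genes tested were called higher and 28.5% lower. Their median was 0.50 beside -0.06 for all genes, and all 10 were also higher with scaling by library totals and DESeq2. All 10 were higher under the mitochondrial scaling too. That scaling moved the median of all genes up to 0.82, so it could not turn a rise.

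**Figure D1:**
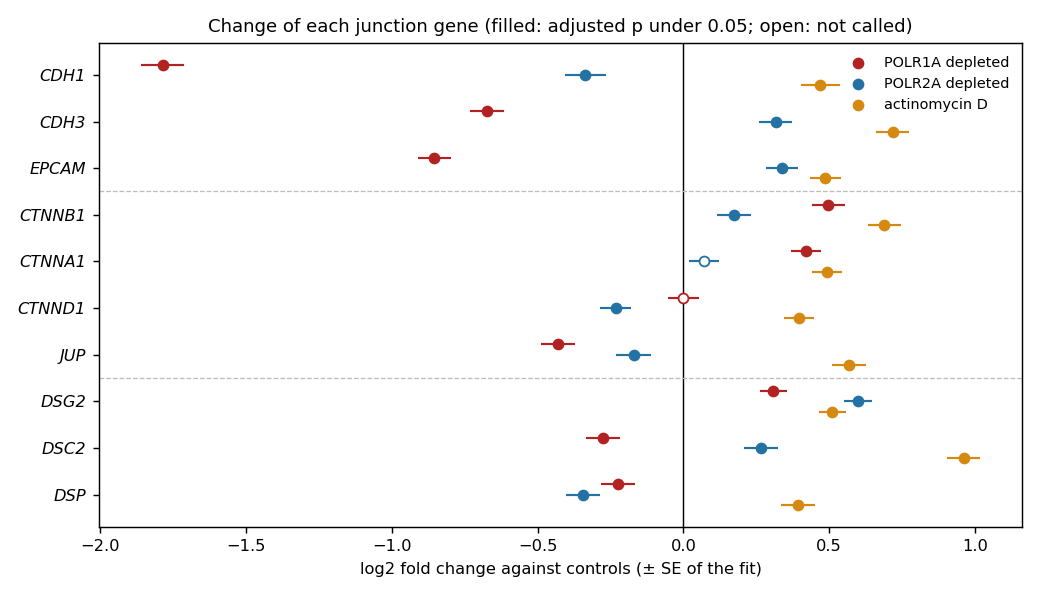
Log2 fold change of each member against the controls (x axis, bars are the SE of the fit), under POLR1A depletion (red), POLR2A depleted (blue) and actinomycin D (orange); 3 libraries a group, filled points were called. Changes ran from -1.79 to 0.50 under POLR1A depletion, from -0.35 to 0.60 under POLR2A depletion and from 0.39 to 0.96 with actinomycin D; under mitochondrial scaling DSC2 and DSP turned positive under POLR1A depletion, and CTNNA1, CTNNB1 and DSC2 turned negative under POLR2A depletion.

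CDH1 encodes E-cadherin, the main classical cadherin of epithelia. Its level was 81.3, 93.4 and 82.8 CPM in the 3 controls and 27.9, 24.3 and 22.7 CPM under POLR1A depletion. It was 67.0, 65.5 and 71.7 CPM under POLR2A depletion and 114, 119 and 124 CPM with actinomycin D. In bulk RNA, fewer cells with a transcript and less of it per cell cannot be told apart. The 4 groups did not overlap, with the POLR1A-depleted libraries far below the rest and the actinomycin D libraries above. Against controls CDH1 fell 3.45-fold under POLR1A depletion (log2 -1.79, SE 0.07, adjusted p = 6.37e-14), and 651 of 23593 genes had a lower log2 fold change. It fell by 0.34 on the log2 scale under POLR2A depletion (SE 0.07, adjusted p = 0.000314) and rose by 0.47 with actinomycin D (SE 0.07, adjusted p = 4.43e-06).

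CDH3 encodes P-cadherin, the other classical cadherin in the set. Its level was 125, 147 and 131 CPM in controls, 80.7, 82.8 and 88.6 under POLR1A depletion, 170.2, 168 and 163 under POLR2A depletion and 219.5, 224 and 219 with actinomycin D. The groups again did not overlap. CDH3 fell by 0.67 under POLR1A depletion (SE 0.06, adjusted p = 3.81e-09), a call lost under mitochondrial scaling (log2 -0.32, adjusted p = 0.0564). It rose by 0.32 under POLR2A depletion (SE 0.06, adjusted p = 6.08e-05), where the mitochondrial scaling gave 0.03 (adjusted p = 0.872), and by 0.72 with actinomycin D (SE 0.06, adjusted p = 4.38e-10).

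EPCAM encodes a transmembrane protein of simple epithelia that associates with claudin-7. Its level was 186, 209 and 189 CPM in controls and 108, 105 and 111 under POLR1A depletion. It was 258, 233 and 249.7 CPM under POLR2A depletion and 281, 264 and 275 with actinomycin D, so no group overlapped another and both of these lay above the controls. EPCAM fell 1.81-fold under POLR1A depletion (log2 -0.85, SE 0.06, adjusted p = 5.89e-11). It rose by 0.34 under POLR2A depletion (SE 0.05, adjusted p = 1.71e-05), a call lost under mitochondrial scaling (0.04, adjusted p = 0.812), and by 0.49 with actinomycin D (SE 0.05, adjusted p = 1.06e-07).

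CTNNB1 and CTNNA1 rose under POLR1A depletion, where CDH1 and CDH3 fell. CTNNB1, beta-catenin, was at 329.7, 399 and 349 CPM in controls, 504, 512 and 506 under POLR1A depletion, 392, 412 and 412 under POLR2A depletion and 580.1, 568 and 591 with actinomycin D. All POLR1A-depleted and actinomycin D libraries lay above all controls, while the POLR2A-depleted ones overlapped them. CTNNB1 rose by 0.50 under POLR1A depletion (SE 0.06, adjusted p = 3.19e-07) and by 0.69 with actinomycin D (SE 0.06, adjusted p = 1.16e-09). The rise of 0.17 under POLR2A depletion (SE 0.06, adjusted p = 0.0123) was lost when control library 1 or 3 or POLR2A library 2 or 3 was left out, with log2 values down to 0.09, and in the fit with no filter (0.07, adjusted p = 0.42).

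CTNNA1 encodes alpha-catenin, which joins beta-catenin to actin. It rose from 313 to 356 CPM in controls to 448 to 455 under POLR1A depletion (log2 0.42, SE 0.05, adjusted p = 5.61e-07) and to 467 to 485 with actinomycin D (0.49, SE 0.05, adjusted p = 2.83e-08). Under POLR2A depletion its 345 to 363 CPM overlapped the controls (0.07, SE 0.05, adjusted p = 0.241), although DESeq2 called it (0.12, adjusted p = 0.0392), as did scaling by library totals (0.19, adjusted p = 0.000201). CTNND1 encodes p120-catenin, which binds the cadherin tail near the membrane and keeps cadherins at the surface. It had 321 to 347 CPM in controls and 327 to 345 under POLR1A depletion, and the log2 difference was -0.00 (SE 0.05, adjusted p = 1.0), or 0.34 under mitochondrial scaling (adjusted p = 0.0348). It fell by 0.23 under POLR2A depletion (SE 0.05, adjusted p = 0.000662), not called when scaled by library totals (-0.11, adjusted p = 0.066), and rose by 0.40 with actinomycin D (SE 0.05, adjusted p = 1.19e-06).

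JUP encodes plakoglobin, the catenin found in both junctions. Its level was 264, 307 and 258 CPM in controls, 199, 205 and 210.1 under POLR1A depletion, 247, 248 and 241 under POLR2A depletion and 391, 422 and 416 with actinomycin D. Every POLR1A- or POLR2A-depleted library was below every control. JUP fell by 0.43 under POLR1A depletion (SE 0.06, adjusted p = 3.16e-06), a call lost under mitochondrial scaling (-0.08, adjusted p = 0.684). The fall under POLR2A depletion (log2 -0.17, SE 0.06, adjusted p = 0.016) was not called without control library 2 (-0.10, adjusted p = 0.0782), by DESeq2 (-0.12, adjusted p = 0.0947) in the fit of those groups alone (-0.16, adjusted p = 0.0538) or when scaled by library totals (-0.05, adjusted p = 0.469). With actinomycin D JUP rose by 0.57 (SE 0.06, adjusted p = 2.88e-08).

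**Figure D2:**
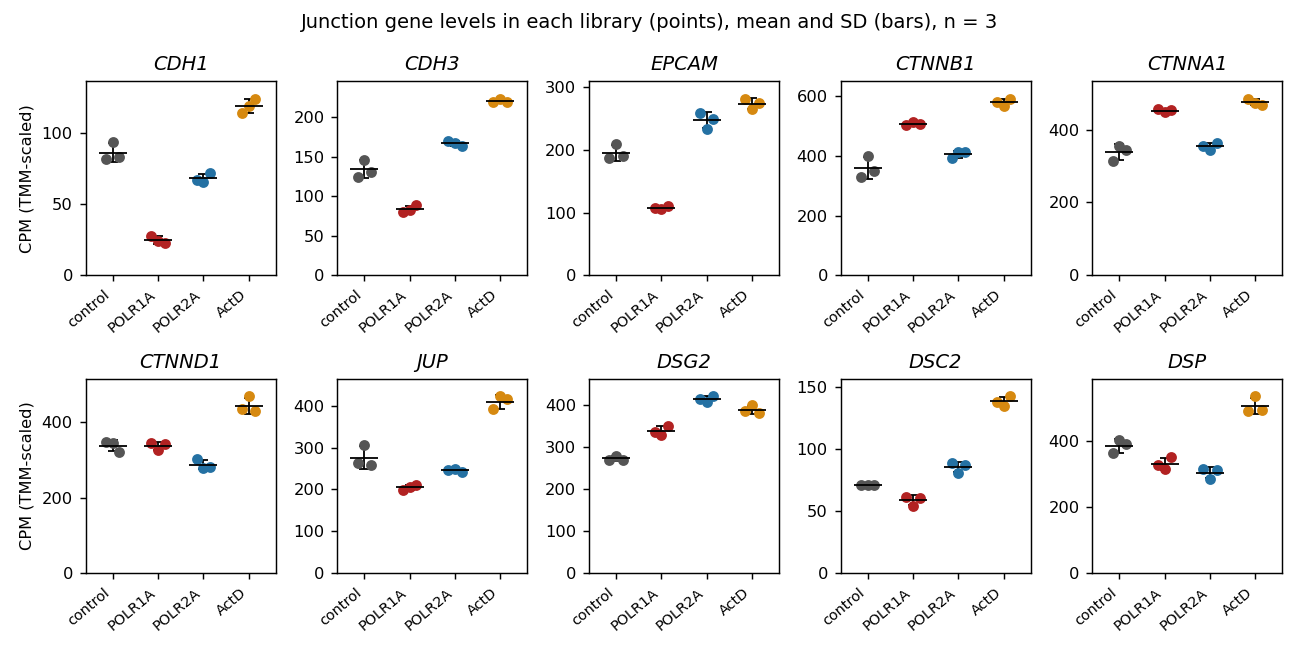
Level of each member in every library in CPM (y axis, from 0, a scale of its own in each panel), by group (x axis); points are libraries, and bars the mean and SD of 3. CDH1 lay at 22.7 to 27.9 CPM in the POLR1A-depleted libraries against 81.3 to 93.4 in controls, and every member's actinomycin D libraries lay above its controls. The share of all genes tested whose libraries do not overlap is not given here for any comparison, and 24.9% were called higher with actinomycin D.

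DSG2 and DSC2 are the desmosomal cadherins of simple epithelia, and they moved apart under POLR1A depletion. DSG2, desmoglein 2, was at 269, 279 and 269 CPM in controls, 335, 327 and 350.0 under POLR1A depletion, 413, 405 and 419 under POLR2A depletion and 384, 398 and 380.4 with actinomycin D. Every treated library lay above every control. DSG2 rose by 0.31 (SE 0.05, adjusted p = 1.26e-05), 0.60 (SE 0.05, adjusted p = 4.73e-10) and 0.51 (SE 0.05, adjusted p = 5.03e-09) under POLR1A depletion, POLR2A depleted and actinomycin D in that order. DSC2, desmocollin 2, was at 71.0, 71.2 and 71.4 CPM in controls, 61.7, 54.3 and 60.4 under POLR1A depletion, 88.8, 80.9 and 87.4 under POLR2A depletion and 138, 135 and 143 with actinomycin D. It was below the controls in the POLR1A-depleted libraries and above them in the others. DSC2 fell by 0.28 under POLR1A depletion (SE 0.06, adjusted p = 0.000562), rose by 0.27 under POLR2A depletion (SE 0.06, adjusted p = 0.000484) and rose 1.95-fold with actinomycin D (log2 0.96, SE 0.06, adjusted p = 4.98e-12). Under mitochondrial scaling the POLR1A value became 0.07 (adjusted p = 0.749) and the POLR2A value -0.03 (adjusted p = 0.869), and the latter also missed the threshold with no filter (0.16, adjusted p = 0.0615).

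DSP encodes desmoplakin, the plaque protein that anchors keratin filaments. It had 361, 402 and 390.3 CPM in controls, 325, 313 and 350.4 under POLR1A depletion, 314, 284 and 311 under POLR2A depletion and 489, 533 and 491 with actinomycin D. Both depleted groups lay below the controls and the actinomycin D libraries above. DSP fell by 0.22 under POLR1A depletion (SE 0.06, adjusted p = 0.00373; 0.13 and not called under mitochondrial scaling) and by 0.35 under POLR2A depletion (SE 0.06, adjusted p = 3.04e-05), and it rose by 0.39 with actinomycin D (SE 0.06, adjusted p = 5.72e-06).

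The sequences upstream of 3 desmosome genes are shown because DSG2 and DSC2 changed in opposite directions under POLR1A depletion, while DSP fell with DSC2. They were taken from the RefSeq promoter table on GRCh38.p14, 5′ to 3′ on the gene's strand, and cover only bases before every transcript start annotated in GENCODE 29. Capitals mark CAGGTG, the E-box that zinc finger repressors of the SNAI and ZEB families are known to bind.
DSG2, chr18:31497927-31498042, plus strand: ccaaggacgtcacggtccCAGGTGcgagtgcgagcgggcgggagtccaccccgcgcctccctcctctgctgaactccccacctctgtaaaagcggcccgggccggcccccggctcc
DSC2, chr18:31102523-31102671, minus strand: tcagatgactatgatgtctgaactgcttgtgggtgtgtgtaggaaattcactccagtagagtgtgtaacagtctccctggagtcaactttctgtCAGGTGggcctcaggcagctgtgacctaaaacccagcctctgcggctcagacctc
DSP, chr6:7541421-7541574, plus strand: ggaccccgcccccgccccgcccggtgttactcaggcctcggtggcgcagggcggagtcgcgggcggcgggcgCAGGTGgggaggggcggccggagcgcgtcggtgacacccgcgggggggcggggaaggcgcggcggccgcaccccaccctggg
All 3 printed sequences held the motif. Under POLR1A depletion DSG2 rose and DSC2 and DSP fell, and these falls turned to 0.07 and 0.13 under mitochondrial scaling. Whether the motif has a part in any change was not tested.

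The table held 6 of the 10 members. In the 250 bases before a RefSeq start, CAGGTG or CACCTG, each the reverse complement of the other, occurred 2 times for DSG2, 2 times for DSP, 1 time before 1 of 2 DSC2 starts and 2 times before 1 of 2 JUP starts. It occurred 0 times for CTNNB1 and before the 4 starts of CTNNA1. Every window runs past the first GENCODE start of its gene, and only 1 of the 2 matches of DSG2 and of DSP lay before it. The CTNNB1 window, all 4 of CTNNA1, the JUP window with 2 matches and the DSC2 window without a match lie wholly inside the gene's span. The counts there do not describe bases upstream of the gene. Of 35116 promoters in the table, 17.5% held the motif in a window of 250 bases. No share is given for stretches as short as the printed ones. The 250-base DSG2 window had 75.2% GC, the DSP window 78.0% and the DSC2 windows 59.6% and 66.8%, where the median over all promoters was 58.0%. The shorter printed sequences had 73.3% GC for DSG2, 83.8% for DSP and 51.7% for DSC2. A match says only that the letters are present.

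Ratios of member pairs within a library do not depend on how libraries are scaled. CDH3 counts were 1.53 to 1.58 times CDH1 counts in controls, 2.90 to 3.90 times under POLR1A depletion, 2.28 to 2.56 times under POLR2A depletion and 1.77 to 1.93 times with actinomycin D. The 4 groups did not overlap (exact permutation test over the 4 groups, p = 6.49e-05, the smallest it can give, adjusted over 7 ratios 0.000227). The balance shifted toward CDH3 in every treated group. EPCAM counts were 2.24 to 2.29 times CDH1 counts in controls, 3.86 to 4.88 under POLR1A depletion, 3.48 to 3.85 under POLR2A depletion and 2.22 to 2.47 with actinomycin D (exact permutation p = 0.0011, adjusted 0.00167). Both depleted groups lay above the controls, and the actinomycin D libraries overlapped them.

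The desmosomal cadherins changed their balance in both directions. DSC2 counts were 0.256 to 0.265 of DSG2 counts in controls, 0.166 to 0.184 under POLR1A depletion, 0.200 to 0.215 under POLR2A depletion and 0.339 to 0.375 with actinomycin D, again with no overlap (exact permutation p = 6.49e-05, adjusted 0.000227). JUP counts were 0.738 to 0.799 of CTNNB1 counts in controls, 0.396 to 0.415 under POLR1A depletion, 0.585 to 0.629 under POLR2A depletion and 0.674 to 0.743 with actinomycin D (exact permutation p = 0.00013, adjusted 0.000303). The actinomycin D libraries overlapped the controls, and the POLR1A-depleted ones were the lowest. Against controls the log2 difference in JUP over CTNNB1 was -0.93 (SE 0.04) under POLR1A depletion. A comparison of 3 libraries with 3 cannot give an exact p below 0.1.

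Among the remaining pairs, CTNND1 was lower relative to CTNNB1 in every treated library than in any control. CTNND1 over CTNNB1 was 0.867 to 1.05 in controls, 0.638 to 0.684 under POLR1A depletion, 0.678 to 0.768 under POLR2A depletion and 0.726 to 0.826 with actinomycin D (exact permutation p = 0.00123, adjusted 0.00167). DSP over JUP was 1.31 to 1.52 in controls, 1.53 to 1.67 under POLR1A depletion, 1.15 to 1.29 under POLR2A depletion and 1.18 to 1.26 with actinomycin D (exact permutation p = 0.00143, adjusted 0.00167). CTNNA1 over CTNNB1 stayed within 0.790 to 0.983 over all libraries, lowest with actinomycin D (exact permutation p = 0.00708, adjusted 0.00708).

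**Figure D3:**
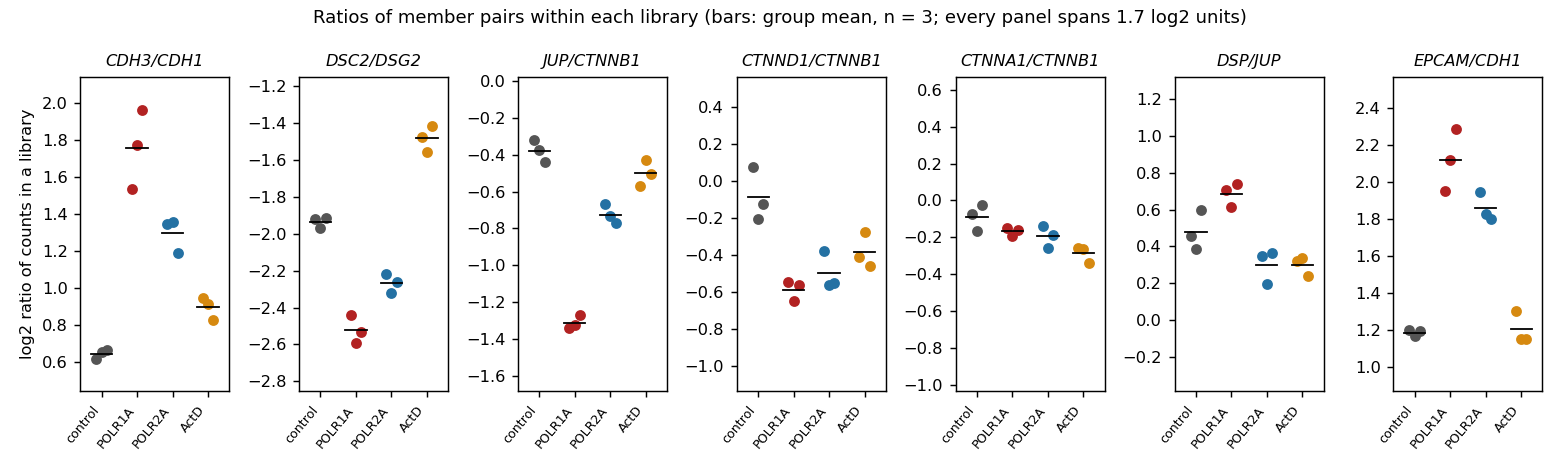
Log2 ratio of the counts of 2 members within each library (y axis, every panel spans the same range), by group (x axis); points are libraries, bars the mean of 3. The CDH3 to CDH1 ratio averaged 0.64 in controls and 1.76 under POLR1A depletion, and the DSC2 to DSG2 ratio -1.93 in controls, -2.52 under POLR1A depletion and -1.48 with actinomycin D.

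Between the treated groups, which differ in cell line, agent and, for actinomycin D, time, CDH1 had the log2 difference farthest from 0 of the members in each comparison, except under mitochondrial scaling between POLR1A and POLR2A depletion, where CDH1 was at -0.80 and CTNNA1, CTNNB1 and CTNND1 at 0.99, 0.96 and 0.88. Set against POLR2A-depleted cells, POLR1A-depleted cells had 3 members higher and 6 lower, where 29.1% of genes tested were called higher and 33.2% lower. The lower ones were CDH1 (log2 -1.45, SE 0.08, adjusted p = 6.62e-13), EPCAM (-1.19), CDH3 (-0.99), DSC2 (-0.54), DSG2 (-0.29) and JUP (-0.26), and the higher ones CTNNA1 (0.35), CTNNB1 (0.32) and CTNND1 (0.23). The mitochondrial scaling gave 6 higher and 3 lower, with CDH1, EPCAM and CDH3 still lower and JUP and DSG2 turned to 0.38 and 0.35. DSP did not pass (0.12, SE 0.06, adjusted p = 0.075), but did with no filter (0.21, adjusted p = 0.00319), under mitochondrial scaling (0.77, adjusted p = 1.41e-07) and without POLR1A library 2 (0.18, adjusted p = 0.0256) or POLR2A library 1 (0.16, adjusted p = 0.0478).

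Set against POLR1A-depleted cells, actinomycin D cells had 9 members higher and 0 lower, where 24.4% of genes tested were called higher and 31.8% lower. CDH1 was 4.78-fold higher (log2 2.26, SE 0.07, adjusted p = 1.73e-16), CDH3 2.63-fold, EPCAM 2.53-fold and DSC2 2.36-fold, and JUP had a log2 difference of 1.00. CTNNA1 did not pass (0.07, SE 0.05, adjusted p = 0.228), but did in DESeq2 (0.14, adjusted p = 0.0118), with no filter (0.18), in the fit of those groups alone (0.13) and under mitochondrial scaling (0.63), and it turned to -0.09 with library totals. There CTNNB1 (0.03, adjusted p = 0.61) and DSG2 (0.04, adjusted p = 0.434) missed the threshold. Set against POLR2A-depleted cells, actinomycin D cells had 9 members higher and 0 lower, where 31.1% of genes tested were called higher and 39.8% lower. CDH1 led at 1.75-fold (log2 0.81, SE 0.07, adjusted p = 1.53e-09), and DSG2 did not pass (-0.09, SE 0.05, adjusted p = 0.0923). DSG2 was called lower by DESeq2 (-0.10, adjusted p = 0.035), by the fit of those groups alone (-0.11) and with library totals (-0.33), and higher under mitochondrial scaling (1.12). EPCAM, higher by 0.15 (adjusted p = 0.0195), turned to -0.09 with library totals (adjusted p = 0.0602).

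Members were also compared by the shape of their 4 group means of log2 CPM, each centred on its own mean, as a description over 4 groups. CTNNA1 and CTNNB1 were the closest pair, at a Euclidean distance of 0.14 log2 units. CTNND1 and DSP followed at 0.18, and CDH3 and EPCAM at 0.22. CDH1 had no close member, its nearest being EPCAM at 0.81. Of 9975 protein-coding genes outside the set, the 5 nearest to CDH1 were ANK3 (0.18), UNG (0.26), MTARC1 (0.31), STEAP3 (0.35) and MCAM (0.36). UNG is a uracil-DNA glycosylase and MCAM a cell adhesion molecule. ANK3, an ankyrin that links membrane proteins to spectrin, had log2 changes of -1.58, -0.32 and 0.53 under POLR1A depletion, POLR2A depleted and actinomycin D.

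On GRCh38 in GENCODE 29, CDH3 (chr16:68636189-68722616, plus strand) and CDH1 (chr16:68737225-68835548, plus strand) lie 14.6 kb apart. Genes within 300 kb did not all move with them. HAS3, a hyaluronan synthase, had log2 changes of -1.93 (adjusted p = 2.78e-14), -1.75 (adjusted p = 6.06e-14) and -2.01 (adjusted p = 2.92e-15) under POLR1A depletion, POLR2A depleted and actinomycin D. TANGO6, the next gene after CDH1, gave -0.15 (adjusted p = 0.305), -1.29 (adjusted p = 4.95e-09) and 0.25 (adjusted p = 0.0516) in that order. ZFP90 was called only under POLR2A depletion among these 3 comparisons (-0.34, adjusted p = 0.00653), and CHTF8 and SMPD3 in none of them.

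DSC2 (chr18:31058840-31102522, minus strand) and DSG2 (chr18:31498043-31549008, plus strand) lie 395.5 kb apart in the desmosomal cadherin cluster. The other members stand apart, EPCAM at chr2:47345158-47387601, CTNNB1 at chr3:41194741-41260096, CTNNA1 at chr5:138610967-138935034, CTNND1 at chr11:57753243-57819546 and DSP at chr6:7541575-7586717, all on the plus strand, and JUP at chr17:41754604-41786931 on the minus strand. DSG1, DSG3, DSG4 and DSC1, which lie in that interval, each had at most 16 counts in any library and were not tested. DSC3 rose by 0.23 under POLR1A depletion (SE 0.06, adjusted p = 0.00539) and was not called in the other comparisons with controls. B4GALT6, beyond DSG2, rose by 1.34 (adjusted p = 1.5e-11), 0.50 (adjusted p = 2.99e-05) and 0.51 (adjusted p = 1.38e-05) under POLR1A depletion, POLR2A depleted and actinomycin D. Antisense and divergent transcripts of the members reached at most 0.818% of their host's counts.

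Of 20 other adherens junction genes, 17 were tested. Under POLR1A depletion 7 rose and 6 fell, under POLR2A depletion 6 rose and 8 fell, and with actinomycin D 7 rose and 6 fell. Of all genes tested, the shares called higher and lower were 20.6% and 18.6%, 33.2% and 28.2%, and 24.9% and 28.5% in this order. The list's medians were 0.14, -0.05 and 0.01, beside 0.01, 0.08 and -0.06 for all genes. The list's were -0.03, -0.05 and 0.01 with CTNNA3 (0 in controls) set to its bound at a floor of 3 counts over the group. The mitochondrial scaling moved the list's medians to 0.49, -0.34 and 0.93, and those of all genes to 0.37, -0.20 and 0.82. NECTIN3, a nectin that starts cell contacts, fell from 211 to 219.9 CPM in controls to 42.5 to 45.2 under POLR1A depletion (4.94-fold, log2 -2.30, SE 0.05, adjusted p = 1.42e-18) and to 71.7 to 72.9 under POLR2A depletion (-1.58, SE 0.05, adjusted p = 2.07e-16). AFDN, the nectin-binding afadin, fell in these groups too, with log2 changes of -0.62 and -1.14, as did PLEKHA7, which binds p120-catenin, at -0.67 and -0.77. AJUBA, a LIM protein at junctions, rose by 0.93 under POLR1A depletion (SE 0.07, adjusted p = 2.62e-10) and fell 3.75-fold with actinomycin D (log2 -1.91, SE 0.08, adjusted p = 5.22e-15). SHROOM3, an actin regulator at the apical junction, fell by 1.17 under POLR2A depletion and by 0.64 with actinomycin D, the latter turning to 0.27 under mitochondrial scaling. VCL, vinculin, fell by 0.80 with actinomycin D, which turned to 0.12 under that scaling, and ARVCF, a relative of p120-catenin, rose by 0.73.

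Of 11 other desmosome genes, 6 were tested. Under POLR1A depletion 2 rose and 3 fell, under POLR2A depletion 2 rose and 2 fell, and with actinomycin D 4 rose and 0 fell. Of all genes tested, the shares called higher and lower were 20.6% and 18.6%, 33.2% and 28.2%, and 24.9% and 28.5% in this order. The list's medians were -0.24, 0.13 and 0.50, beside 0.01, 0.08 and -0.06 for all genes. Under mitochondrial scaling the list's were 0.11, -0.17 and 1.41, and those of all genes 0.37, -0.20 and 0.82. PPL, periplakin, fell by 0.67 under POLR1A depletion (SE 0.07, adjusted p = 1.01e-07) and rose by 0.49 with actinomycin D, and its rise of 0.22 under POLR2A depletion turned to -0.07 under mitochondrial scaling. EVPL, envoplakin, rose by 0.53 under POLR1A depletion and 0.65 with actinomycin D, and fell by 0.19 under POLR2A depletion. PKP3, a plakophilin, fell by 0.59 under POLR1A depletion and rose by 0.52 with actinomycin D. PKP2, another plakophilin, fell by 0.76 under POLR2A depletion (SE 0.07, adjusted p = 2.68e-09), and its fall by 0.35 under POLR1A depletion turned to 0.01 under mitochondrial scaling. PERP, a p53 target needed for desmosomes, rose by 0.68 under POLR2A depletion (SE 0.06, adjusted p = 4.5e-09) and by 0.87 with actinomycin D (SE 0.06, adjusted p = 6.71e-11).

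The list of EPCAM relatives and of factors that shed or turn over junction proteins had 9 genes, all tested. Under POLR1A depletion 3 rose and 4 fell, under POLR2A depletion 3 rose and 5 fell, and with actinomycin D 4 rose and 2 fell. Of all genes tested, the shares called higher and lower were 20.6% and 18.6%, 33.2% and 28.2%, and 24.9% and 28.5% in this order. The list's medians were 0.00, -0.17 and 0.13, beside 0.01, 0.08 and -0.06 for all genes. Under mitochondrial scaling the list's were 0.34, -0.46 and 1.04, and those of all genes 0.37, -0.20 and 0.82. CLDN7, the claudin that binds EPCAM, fell from 111 to 131 CPM to 36.8 to 42.4 under POLR1A depletion (3.06-fold, log2 -1.61, SE 0.07, adjusted p = 1.96e-13). ADAM10, a protease that sheds E-cadherin, fell by 0.27 under POLR2A depletion and rose by 0.46 with actinomycin D. ST14, matriptase, fell by 0.47 under POLR1A depletion, and SPINT2, an inhibitor of such proteases, rose by 0.52 under POLR2A depletion and 0.70 with actinomycin D. CBLL1, the E-cadherin ubiquitin ligase Hakai, fell by 1.27 with actinomycin D (SE 0.06, adjusted p = 1.57e-13).

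Of 15 transcription factors known to repress or sustain CDH1, 11 were tested. Under POLR1A depletion 4 rose and 3 fell, under POLR2A depletion 3 rose and 6 fell, and with actinomycin D 1 rose and 5 fell. Of all genes tested, the shares called higher and lower were 20.6% and 18.6%, 33.2% and 28.2%, and 24.9% and 28.5% in this order. The list's medians were -0.13, -0.55 and -0.39, beside 0.01, 0.08 and -0.06 for all genes. The last was -0.27 without SNAI2, at or under 3 counts over the controls and over the actinomycin D libraries. Under mitochondrial scaling the list's medians were 0.26, -0.86 and 0.50, and those of all genes 0.37, -0.20 and 0.82. ZEB1, a repressor of CDH1, rose from 3.59 to 4.50 CPM in controls to 19.9 to 22.4 under POLR1A depletion (5.22-fold, log2 2.38, SE 0.19, adjusted p = 4.37e-09). GRHL2, which sustains CDH1 transcription, fell from 30.8 to 34.5 CPM to 6.74 to 7.83 (4.33-fold, log2 -2.11, SE 0.10, adjusted p = 6.96e-13). HNF4A, a factor of gut and liver epithelium, rose by 0.93 and OVOL1, which represses ZEB1, by 0.57 in the same group. Under POLR2A depletion the SNAI1 repressor rose by 0.92 (SE 0.13, adjusted p = 3.61e-06), and GRHL1, HNF4A and the intestinal factor CDX2 fell, with log2 changes of -1.66, -0.90 and -0.87. With actinomycin D KLF4, OVOL1, SNAI1 and CDX2 fell, with log2 changes of -3.74, -3.33, -2.90 and -2.87. Whether any of these factors acts on the members was not tested.

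**Figure D4:**
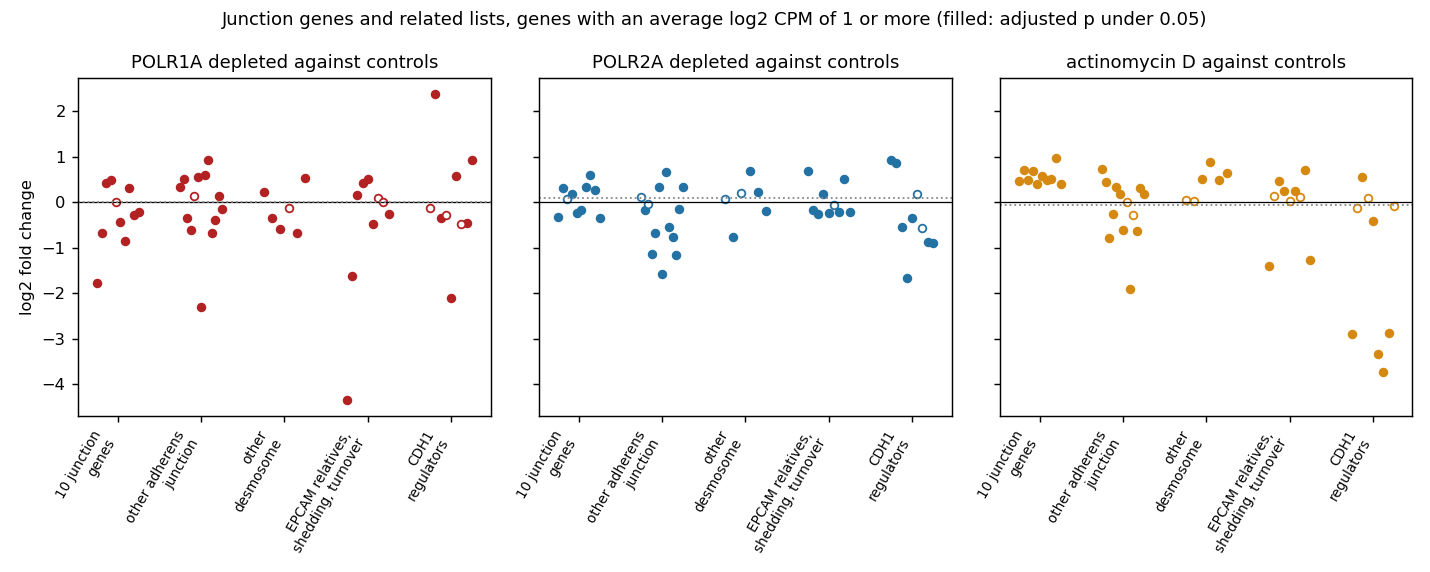
Log2 fold change against the controls (y axis) of the 10 members and of the 4 lists, limited to genes whose log2 CPM averaged at least 1, in the 3 comparisons; filled points were called, and the dotted line is the median of all genes. NECTIN3 lay at -2.30 under POLR1A depletion and KLF4 at -3.74 with actinomycin D, while all 10 members lay above 0 with actinomycin D. They did so under mitochondrial scaling too, which moved the median of all genes up to 0.82 there.

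The scaling of libraries set how the smaller changes read. Mitochondrial mRNAs took 6.06% to 8.17% of counts in controls, 5.58% to 5.98% under POLR1A depletion, 8.68% to 10.4% under POLR2A depletion and 3.42% to 3.54% with actinomycin D. Scaled on them, the median of all genes moved to 0.37, -0.20 and 0.82 in the 3 comparisons with controls. CDH1 stayed lower with both polymerases depleted, EPCAM lower under POLR1A depletion, and CTNND1, JUP and DSP lower under POLR2A depletion. DSG2 stayed higher with both polymerases depleted, CTNNB1 and CTNNA1 higher under POLR1A depletion, and all 10 members higher with actinomycin D. The scaling moved values up under POLR1A depletion and actinomycin D, and down under POLR2A depletion. Of the changes just listed, it therefore moved toward 0 only CDH1 and EPCAM under POLR1A depletion and DSG2 under POLR2A depletion. The others could not turn.

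**Figure D5:**
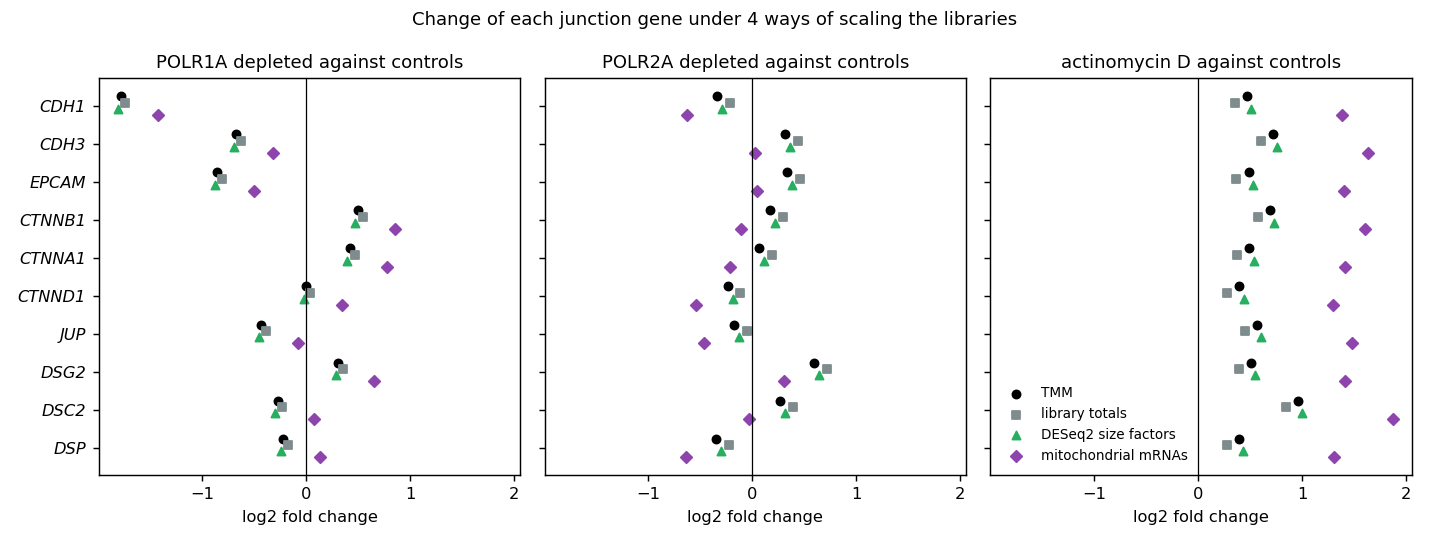
Log2 fold change of each member against the controls (x axis) with libraries scaled by TMM, library totals, DESeq2 size factors or mitochondrial mRNAs, in the 3 comparisons. Under POLR1A depletion the mitochondrial scaling moved DSC2 to 0.07 and DSP to 0.13, and under POLR2A depletion it moved CTNNA1 to -0.22 and CTNNB1 to -0.11. All 10 members stayed above 0 with actinomycin D under each scaling. There the mitochondrial scaling moved the median of all genes up to 0.82, so it could not turn a rise.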

How the data were processed

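The deposited table held estimated counts per Ensembl gene, 76.1% of them whole numbers, made by the authors. Per the submitters' processing notes the tools included STAR, RSEM 1.3.3 and HTSeq 2.0.2, on GRCh38, with no roles stated. The sources used here do not give the strand setting or annotation release, so genes that overlap others are uncertain. Libraries were rRNA-depleted and stranded, per the labels' protocols. A symbol was found for 62666 of 63241 genes, and positions came from GENCODE 29.

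Counts were rounded and tested with edgeR 4.0.16 in R 4.3.3: filterByExpr, TMM scaling, 1 robust quasi-likelihood fit over all 12 libraries with 8 residual degrees of freedom, and Benjamini-Hochberg adjustment over 23593 genes in each of 6 comparisons. Levels per kb used the longest APPRIS principal transcript. Ratios were log2 of counts plus 0.5. The members, lists and tests were chosen with earlier results of these data known. All members were named. From each list, at most 4 called genes a comparison were named by size of change, where log2 CPM averaged at least 1. Some genes that this gives are not reported here. For the 5 genes most like CDH1 it averaged at least 3. Alternatives were DESeq2 1.42.0, library totals, mitochondrial mRNA scaling, no filter, fits of 2 groups, a replicate block, a ratio pseudocount of 1 and leaving out each library.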

Additional observations from a re-analysis of the deposited data

How the results depend on the processing

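Of 60 changes of members over 6 comparisons, direction and side of the threshold were kept in 59 with a replicate block, 57 with only the 2 groups compared, 56 with DESeq2, 54 with no filter, 51 with library totals and 44 with mitochondrial mRNA scaling, and in 349 of 360 with a library left out. The causes of the differences were not tested. Same-numbered libraries correlated at -0.06 to 0.04 in their deviations, so the numbers share only a number. The replicate block changed no call, and it moved CTNND1 with POLR1A depleted to 0.0004.

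Mitochondrial scaling gave 2 members lower with POLR1A depleted, 5 called and 1 higher with POLR2A depleted, and 6 higher and 3 lower between POLR1A and POLR2A depletion. Members lower numbered 2 with POLR2A depleted under library totals, and members higher 3 with no filter. Between actinomycin D and POLR2A depletion, 1 member was lower under library totals, DESeq2 and the fit of 2 groups.

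Over all genes, mitochondrial scaling called 1263 lower with POLR1A depleted, 5041 higher with POLR2A depleted, 11900 higher and 2061 lower with actinomycin D, 11332 higher and 3929 lower for POLR1A against POLR2A depletion, 9256 and 3495 for actinomycin D against POLR1A depletion, and 12914 and 4335 against POLR2A depletion. In this order of comparisons it moved the share of higher among calls to 85.1%, 38.6%, 85.2%, 74.3%, 72.6% and 74.9%, from 52.6%, 54.1%, 46.7%, 46.7%, 43.4% and 43.9%. Its medians between treatments were 0.56, 0.41 and 1.02, from -0.08, -0.12 and -0.18. Library totals moved the last comparison's share to 31.9% and its median to -0.42, the median for actinomycin D against controls to -0.18, for POLR2A depletion to 0.21 and for actinomycin D against POLR1A depletion to -0.28.

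Log2 changes that turned were, with POLR1A depleted, CTNND1 (0.0399 with library totals, 0.34 with mitochondrial scaling, -0.0296 to 0.0307 with a library left out), DSC2 (0.0722) and DSP (0.13, both with mitochondrial scaling). With POLR2A depleted they were CTNNA1 (-0.22 with mitochondrial scaling, -0.0332 with no filter, -0.0023 to 0.0922 with a library left out), CTNNB1 (-0.11) and DSC2 (-0.0323, both with mitochondrial scaling). Between POLR1A and POLR2A depletion, mitochondrial scaling turned JUP (0.38), DSG2 (0.35) and DSC2 (0.10). For actinomycin D against POLR2A depletion, DSG2 turned with mitochondrial scaling (1.12) and no filter (0.10), and EPCAM with library totals (-0.0924). CTNNA1 for actinomycin D against POLR1A depletion became -0.0883 with library totals. The log2 ratio of EPCAM to CDH1 for actinomycin D against controls ran from -0.034 to 0.0426 with a library left out. Totals of 11289094 to 27393969 counts and 3 dishes a group limit the smallest changes called.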
